A study of Oryza sativa Japonica Group with 17 samples.

Results

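To examine how GpC hypermethylation altered the landscape of i-motifs (iMs) at pH 7.0, the iM peaks of hypermethylated rice DNA were compared with those of CK, genomic DNA of unaltered methylation. A peak was kept when it was called against input and overlapped, by at least 1 bp, a peak called against IgG in the same condition. Such peaks are called common peaks below. Hypermethylated DNA had 67787 common peaks and CK had 55062, together 122849 of the 354589 common peaks in the 5 conditions of the series. A common peak was shared if it overlapped a common peak of the other condition by at least 1 bp, and specific otherwise. Of the hypermethylated peaks, 24574 (36.3%) were specific, and of the CK peaks, 7465 (13.6%) were specific.

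The series held 17 libraries of rice genomic DNA assayed by iM-IP-seq, in which purified DNA is refolded in vitro and iM-bearing fragments are pulled down (immunoprecipitation, IP) with the antibody fragment iMab. Each condition had 2 iMab IP libraries and 1 IgG library, the control for non-specific binding. The DNA of both conditions came from 2-week-old Nipponbare seedlings. For hypermethylation, 4 µg of DNA was incubated with 8 units of the methyltransferase M.CviPI and 640 µM S-adenosylmethionine at 37 °C for 1 h, and an input library was made from it. An input library of CK was not analysed here. The assay saw naked, refolded DNA, so no chromatin was present in either condition.

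An iM forms when a strand rich in C folds back on itself and pairs of C share a proton, which stacks the strand into a 4-stranded core. Acidic pH favours the proton, and at neutral pH iM formation depends more on the length of the C runs, on the loops between them and on methyl groups on C. M.CviPI places a methyl group on the C that follows a G, a dinucleotide that occurs throughout plant genomes in genes and transposons alike. Each peak marks a stretch of DNA where iMab IP fragments exceeded the control, and the summit is the position of the highest IP coverage.

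Coverage has to be read beside every comparison. The peak caller, MACS2, gives each summit a −log10 p-value and a fold, which is the IP pileup divided by the control level around the peak. Both were solved together for the reads under the summit. Unscaled IP coverage was alike, with a genome mean of 12.28 fragments in CK and 11.4 in hypermethylated DNA. Against input, however, the CK IP had been scaled to 0.489 of its reads, which left a mean of 6.004, while the hypermethylated IP was not scaled. Against IgG the CK IP kept 0.910 of its reads. The local control level at CK peaks called against input was 1.67 times the genome mean at the median, and that at hypermethylated peaks was 1.05 times. The IP libraries of a condition were merged before peak calling, so there is no replicate error and no test between conditions. Intervals of shares are 95% Wilson intervals, which cover counting error only, and the SD over the 12 chromosomes shows the spread between chromosomes, not between replicates.

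To see whether specific peaks were also missed by the other control of the other condition, they were looked up in all lists. Of the hypermethylated-specific peaks, 15919 (64.8%, interval 64.2 to 65.4) overlapped a CK peak called against IgG. Another 1632 (6.64%) overlapped, with or without such a peak, a CK peak called against input that was not common. By the rule a specific peak cannot overlap a common peak of the other condition. Of the 57676 CK peaks called against input, 55062 were common, so few were left to overlap. On the hypermethylated side, 67787 of 71294 were common. The shares in input-called and IgG-called lists are therefore not comparable. Neither CK list had a peak at 7097 of them (28.9%). Of the CK-specific peaks, 1050 (14.1%, interval 13.3 to 14.9) overlapped a hypermethylated peak called against IgG and 988 (13.2%) one called against input, and neither list had a peak at 5427 (72.7%). Most hypermethylated-specific peaks were therefore called in CK against IgG, where the CK IP was nearly unscaled. With peaks absent from both lists of the other condition, the ratio of hypermethylated-specific to CK-specific peaks was 1.31, against 3.29 for common peaks. The CK IgG-called list was also the longest of the 4, with 94627 peaks, so it had more peaks to overlap.

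With IgG-called lists alone the direction was opposite. There, 27993 of the 94627 CK peaks (29.6%) and 9750 of the 71568 hypermethylated peaks (13.6%) were specific. The control and the scaling of the IP change together between the lists. How much of the difference in number belongs to methylation, to the control or to scaling cannot be told apart with these lists.

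The specific peaks were then looked up in the common peaks of the other conditions. Hypermethylated DNA at pH 5.5 shares its treatment and its input library with the set at pH 7.0, and demethylated DNA came from seedlings given zebularine, an inhibitor of DNA methyltransferases. Of the hypermethylated-specific peaks, 61.2% overlapped a common peak of demethylated DNA at pH 7.0, 56.6% one of hypermethylated DNA at pH 5.5 and 57.2% one of demethylated DNA at pH 5.5. Among shared hypermethylated peaks these shares were 94.2%, 92.3% and 78.3%. Of the CK-specific peaks, 58.4%, 60.9% and 44.4% were found again in the same order, and of the shared CK peaks 94.3%, 91.6% and 75.3%. In each of these 3 conditions the share was thus lower for specific than for shared peaks of either side. For hypermethylated-specific peaks, the shares found in demethylated DNA were no lower than that in hypermethylated DNA of the other pH. A share also depends on the number and width of the peaks in each list. No adjustment was made for these, so the shares do not rank the conditions. None of the 3 conditions had a common peak at 2841 (11.6%) hypermethylated-specific and 915 (12.3%) CK-specific peaks. For peaks absent from both lists of the other condition, the shares were 40.2%, 31.9% and 30.2% on the hypermethylated side and 52.6%, 56.8% and 41.5% on the CK side.

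**Figure D1:**
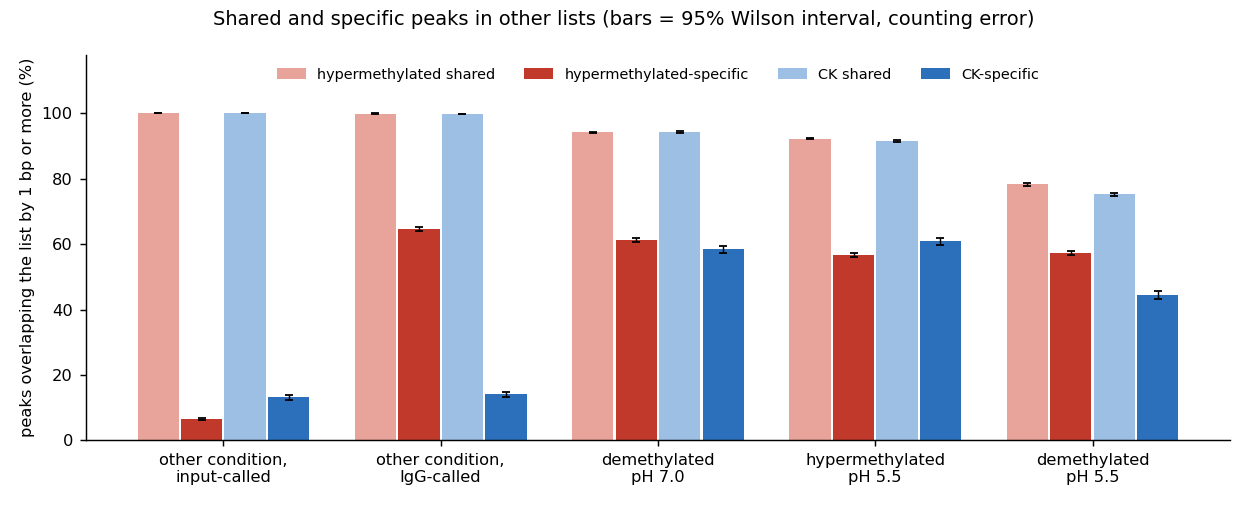
Share of peaks (y axis, percent) of 4 classes that overlapped, by at least 1 bp, the 2 lists of the other condition at pH 7.0 and the common peaks of 3 other conditions (x axis), with 95% Wilson intervals. Hypermethylated-specific peaks stand at 64.8% in the IgG-called list of CK, and CK-specific peaks at 14.1% in that of hypermethylated DNA. In the 2 lists of the other condition, the high shares of shared peaks follow from the rule. In the common peaks of the 3 other conditions, both specific classes lie below the shared peaks.

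Specific peaks were lower and narrower than shared ones. The median fold was 5.71 at shared and 3.54 at specific hypermethylated peaks, and 3.59 at shared and 3.23 at specific CK peaks. The median width was 517 bp and 339 bp in hypermethylated DNA, and 293 bp and 202 bp in CK. The median −log10 q-value was 32.4 and 12.1 in hypermethylated DNA, and 10.9 and 6.38 in CK. In hypermethylated DNA, specific peaks covered 10.3 Mb and shared peaks another 29.9 Mb. In CK, these values were 1.65 Mb and 18.3 Mb.

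Ranked by fold, the share of specific hypermethylated peaks fell from 70.7% in the lowest decile (folds of 1.16 to 2.63) to 5.04% in the highest (folds above 10.3). CK peaks did not follow fold as closely. Their specific share was 13.7% in the lowest decile, 18.5% at folds of 2.66 to 2.94 and 3.50% in the highest decile. Width separated CK-specific peaks better, with 38.7% specific in the narrowest decile (168 to 185 bp) and 0.127% in the widest (645 bp and more). For hypermethylated peaks these shares were 63.7% and 7.08%. A wider peak is more easily overlapped by at least 1 bp from its length alone. No expected share by width was taken, so this part of the fall is not known. No list held a peak under 168 bp in CK or under 199 bp in hypermethylated DNA.

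The specific peaks ranked first by −log10 q-value were mostly exceptions to the low folds. On the hypermethylated side the leading peak, chr2:28719468-28721391 (MSU v7.0), had a neighbour at chr2:28716292-28717023 with a fold of 343 over 732 bp. Both the leading peak and its neighbour lacked a peak in either CK list and a common peak in any of the 3 other conditions. The next was chr11:12278603-12278954, whose fold was only 2.90 although its −log10 q-value was 650, and it lay 83.2 kb from the nearest CK common peak. It was found again in demethylated DNA at pH 7.0 and in hypermethylated DNA at pH 5.5. The last, chr4:9783232-9784030, had a fold of 35.6 and no counterpart in any other list examined. All of these hypermethylated-specific peaks lay above the −log10 p-value of 250 up to which summit reads were solved. Their reads and control levels are therefore unknown, and what produced such extreme values was not tested. They should not be read as the strongest iM gains. After the leading CK-specific peak came chr10:22443705-22443995 with a fold of 11.9, chr9:22358083-22358371 with 8.31 and chr5:21481691-21481907 with 8.91. They lay 0.293, 1.02 and 1.56 kb from a hypermethylated common peak. Over all CK-specific peaks this distance had a median of 1.97 kb and quartiles of 0.904 and 4.04 kb, so the distances of 1.02 and 1.56 kb were not unusual. The peak on chromosome 9 also overlapped a hypermethylated peak called against input that was not common.

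Along the chromosomes, specific peaks were spread evenly. Hypermethylated-specific peaks numbered 65.9 ± 2.49 per Mb (SD, n = 12 chromosomes), from 61.2 on chromosome 11 to 69.6 on chromosome 6. CK-specific peaks numbered 20.1 ± 0.837 per Mb, from 18.98 on chromosome 4 to 21.4 on chromosome 11. On each of the 12 chromosomes the former outnumbered the latter, with the lowest ratio, 2.86, on chromosome 11 and the highest, 3.64, on chromosome 6. The specific share of hypermethylated peaks ranged from 34.3% on chromosome 11 to 38.7% on chromosome 1, and that of CK peaks from 12.7% on chromosome 9 to 14.9% on chromosome 2. For peaks absent from both lists of the other condition, the ratio was above 1 on all 12 chromosomes as well, from 1.08 on chromosome 3 to 1.52 on chromosome 6. The longest chromosomes, 1, 3 and 2, had the lowest densities of both peak sets, at 171, 171 and 172 hypermethylated peaks and 135, 136 and 138 CK peaks per Mb. They also had the highest specific shares of hypermethylated peaks, 38.7%, 37.8% and 37.7%, in the same order.

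Each chromosome was next divided into 10 bins of equal length, pooled over chromosomes. Both peak sets were densest in the fourth bin, at 209 hypermethylated and 176 CK peaks per Mb, and sparsest in the last, at 154 and 123 per Mb. The specific peaks varied less, between 58.6 and 70.4 per Mb in hypermethylated DNA and between 17.9 and 21.6 per Mb in CK. As a result, the specific share of hypermethylated peaks was lowest where peaks were densest, 33.4% in the fourth bin, and highest in the ninth, 39.02%. The ratio of hypermethylated-specific to CK-specific peaks stayed between 3.03 and 3.56. In the first and last bins pooled, 37.1% of hypermethylated peaks were specific, against 36.1% in the rest, a mean difference of 1.16 ± 1.99 percentage points (SD, n = 12 chromosomes) with the ends higher on 7 chromosomes. For CK peaks these values were 14.5% and 13.4%, with a difference of 1.21 ± 1.82 and the ends higher on 9 chromosomes. Both differences were smaller than their SD between chromosomes.

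**Figure D2:**
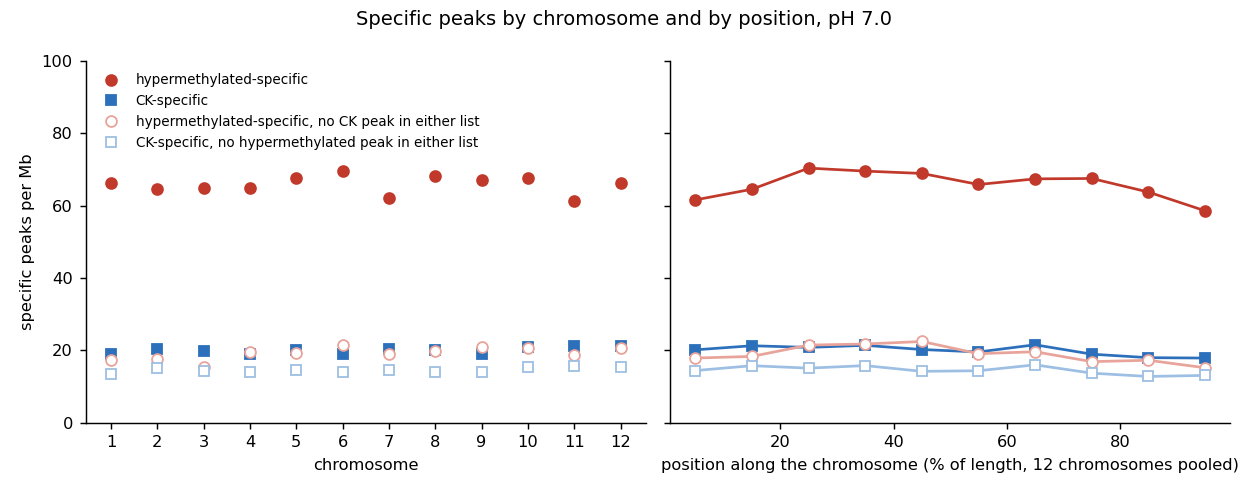
Specific peaks per Mb (y axis) on each of the 12 chromosomes (left) and in 10 bins of relative chromosome length (right), with filled symbols for all specific peaks and open symbols for those with no peak in either list of the other condition. Hypermethylated-specific peaks lie between 58.6 and 70.4 per Mb and CK-specific peaks between 17.9 and 21.6 per Mb over the bins, and the open symbols of both sides lie close together.

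In windows of 100 kb, hypermethylated-specific peaks exceeded CK-specific ones in 3364 of 3727 windows (90.3%), were equal in 168 and fewer in 195. The median window held 6 of the former and 2 of the latter. Of peaks absent from both lists of the other condition, the hypermethylated side had more in 1715 windows and the CK side in 1179. Over windows, the number of CK peaks correlated with the number of hypermethylated peaks (Pearson's r = 0.80), weakly with that of CK-specific peaks (r = 0.25) and barely with that of hypermethylated-specific peaks (r = 0.10). CK-specific peaks are a part of the CK peaks, so some of their correlation follows from the counting. Neighbouring windows share sequence composition and mappability, so these values are descriptions.

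Windows were also grouped by their number of CK peaks. Windows with 5 to 9 CK peaks gained 6.33 ± 2.96 hypermethylated-specific peaks (SD, n = 529 windows), those with 10 to 14 gained 6.46 ± 2.72 (n = 1417) and those with 15 to 19 gained 6.51 ± 2.81 (n = 1084). At the extremes the means were 7.20 ± 5.26 in 44 windows with 0 to 4 CK peaks and 8.51 ± 3.27 in 53 windows with 30 or more. Each SD is the spread over single windows and not the error of a mean, so it does not show whether the group means differ. The share of hypermethylated peaks that was specific fell from 74.6% to 24.7% between the sparsest and the densest group. Shared hypermethylated peaks overlap CK peaks by the rule, and windows were grouped by CK peaks. With gains this similar between groups, a falling share follows from the grouping and is no separate result. CK-specific peaks numbered 0.705 per window in the sparsest group, 2.50 with 20 to 29 CK peaks and 1.98 in the densest, where their share of CK peaks was lowest, 5.94%. Hypermethylated-specific peaks in neither CK list numbered 2.41 per window in the sparsest group and 1.73, 1.74 and 1.82 in the next groups. They rose to 2.37 with 20 to 29 CK peaks and 3.81 with 30 or more.

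**Figure D3:**
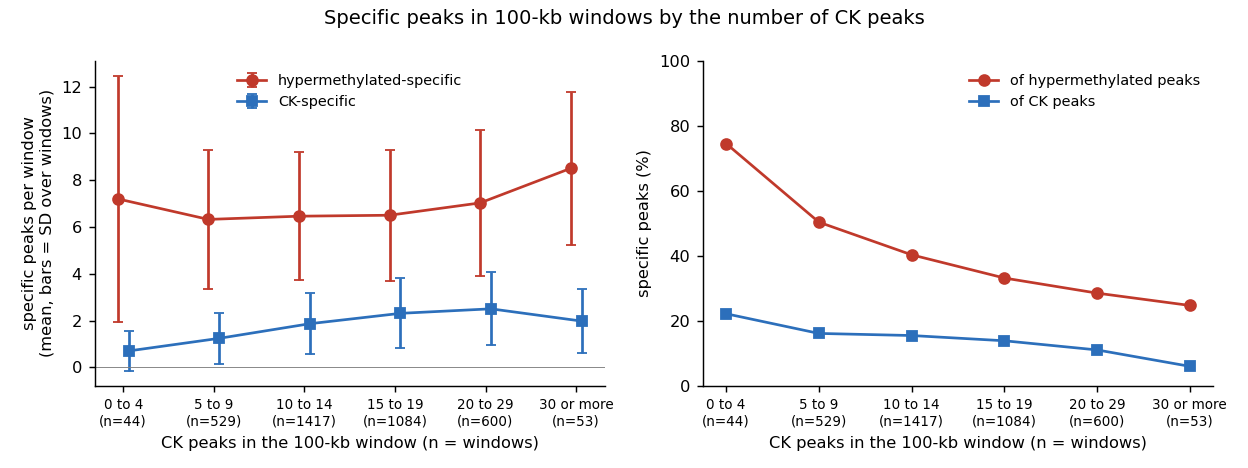
Specific peaks per 100-kb window (left, mean with SD over windows) and the specific share of each peak set (right, percent) against the number of CK peaks in the window. Hypermethylated-specific peaks stay between 6.33 and 8.51 per window while their share falls from 74.6% to 24.7%, a fall that follows from grouping windows by CK peaks.

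Single windows departed from this average. The window with the most hypermethylated-specific peaks, chr6:15400001-15500000, held 28 of them among 32 hypermethylated peaks, beside 9 CK peaks. At 22 of the 28 neither CK list had a peak. In chr9:2800001-2900000, 26 of 29 hypermethylated peaks were specific, and in chr12:12000001-12100000, 24 of 28. In both of these the CK lists lacked a peak at only 9. On the CK side the leading windows were chr11:9900001-10000000 with 10 CK-specific of 27 CK peaks, chr6:28200001-28300000 with 9 of 22 and chr2:17300001-17400000 with 8 of 23. The leading windows of the CK side held more CK peaks than those of the hypermethylated side. The way the windows were chosen favours this, since CK-specific peaks count among the CK peaks and hypermethylated-specific peaks overlap none of them.

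To ask whether gains fell inside or outside groups of CK peaks, a CK cluster was defined as at least 3 CK common peaks with gaps of at most 5 kb. There were 7018 clusters, which held 33623 CK peaks (61.1%) within 62.4 Mb, 16.7% of the 373 Mb spanned by peaks. The median cluster held 4 peaks over 7.27 kb and the largest held 37. Of the hypermethylated-specific summits, 3656 (14.9%) lay inside clusters and 20918 outside. Because a specific peak cannot overlap a CK peak, densities were taken over sequence free of CK peaks. They were 74.3 per Mb inside and 68.8 per Mb outside, a ratio of 1.08. Taken per chromosome, its log2 was 0.11 ± 0.14 (SD, n = 12) and lay above 0 on 9 chromosomes, with the lowest value of -0.07 on chromosome 3 and the highest of 0.33 on chromosome 9. The difference was thus smaller than its spread between chromosomes, and its direction depended on the definition. Counted over all sequence, CK peaks included, densities were 58.55 inside and 67.3 outside, and with gaps of at most 1 kb they were 5.82 and 70.1, since little of the sequence in so tight a cluster can hold a peak that touches none of its members.

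For peaks with no peak in either CK list, the densities were 28.5 per Mb inside clusters and 18.7 per Mb outside, a ratio of 1.52. Such a peak can overlap no peak of either CK list, but only sequence under CK common peaks was left out of these densities. The ratio therefore includes sequence that these peaks could not occupy. Its spread between chromosomes is not given here. A peak of a CK list lay at 61.7% of gains inside clusters and at 72.8% of gains outside. Clusters of 6 or more CK peaks had more gains per Mb, with 67.1 in clusters of 3 CK peaks, 65.9 in those of 4 to 5, 81.8 in those of 6 to 9 and 89.2 in those of 10 or more. No gain was found in 4539 clusters (64.7%). Of the CK peaks themselves, 11.4% inside clusters and 16.9% outside were CK-specific. The 3 clusters with the most gains were chr8:6970175-7038365 (37 CK peaks, 8 gains, 4 of them in neither CK list), chr10:10793034-10851619 (21 CK peaks, 7 gains, 4 in neither list) and chr9:7525699-7576901 (19 CK peaks, 7 gains, 0 in neither list). In the last of these every gain had a CK peak in a list.

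Distance from the nearest CK peak gave more detail. Only 11 hypermethylated-specific summits lay within 250 bp of a CK peak, where most peaks would overlap it. The density was 47.2 per Mb of uncovered sequence at 250 to 500 bp, 100.1 at 500 to 1000 bp, 93.1 at 1000 to 2000 bp and 67.0 at 2000 to 5000 bp, and it lay between 68.5 and 75.1 beyond. Hypermethylated-specific peaks were therefore densest 500 to 2000 bp from an existing CK peak. The median distance was 2.44 kb. Peaks in neither CK list were also densest at 500 to 1000 bp, with 34.3 per Mb, followed by 26.7 at 1000 to 2000 bp and by 16.97 to 18.1 between 2000 and 20000 bp, and 124 of them beyond 20000 bp gave 30.7 per Mb. These densities, too, left out only sequence under CK common peaks, not under all peaks of the CK lists. CK-specific summits around hypermethylated peaks numbered 29.4 per Mb at 500 to 1000 bp and between 22.2 and 25.1 per Mb from 1000 to 20000 bp. Beyond 20000 bp there were 10 of them, or 8.90 per Mb. Their median distance was 1.97 kb.

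**Figure D4:**
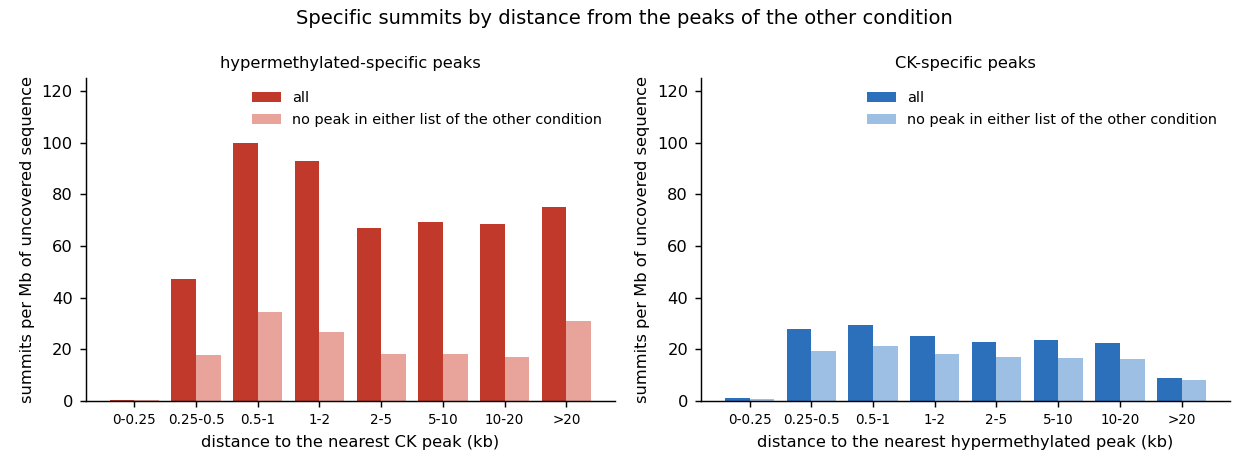
Specific summits per Mb of sequence not covered by common peaks of the other condition (y axis) by distance to the nearest such peak (x axis, kb), for all specific peaks and for those with no peak in either list of the other condition. Hypermethylated-specific peaks reach 100.1 per Mb at 500 to 1000 bp and 67.0 per Mb at 2000 to 5000 bp.

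Where peaks were shared, they were mostly matched 1 to 1. Overlapping peaks formed 43188 groups, of which 39303 (91.0%) held 1 CK and 1 hypermethylated peak. In 3860 groups (8.94%) several CK peaks were joined under 1 hypermethylated peak, whereas in 22 groups 1 CK peak was split into several hypermethylated peaks, and 3 groups were mixed. Joining thus outnumbered splitting 175 times. The share of joined groups was 8.95 ± 0.58% over chromosomes (SD, n = 12), from 7.84% on chromosome 3 to 9.93% on chromosome 8. Most joins took in 2 CK peaks (3398 groups), 393 took in 3 and 69 took in 4 or more. The CK peaks involved numbered 8265, or 17.4% of the shared CK peaks.

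The gap between joined CK peaks was 297 bp at the median and 767 bp at the 90th percentile, and the longest was 2369 bp. Joined hypermethylated peaks had a median width of 1426 bp and a median fold of 8.53, and the CK peaks under them had medians of 321 bp and 3.58. In 60.6% of joins the hypermethylated summit lay in the CK peak with the highest fold, in 95.8% it lay in one of the CK peaks, and in 4.20% it fell between them. In 1460 joins (37.8%) a single CK peak called against IgG covered all the pieces, so these CK peaks were already joined when another control was used. With IgG-called lists on both sides, 4644 groups were joined and 408 were split, a ratio of 11.4.

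The most CK peaks were joined at chr5:29803498-29811160, where 1 hypermethylated peak of 7663 bp and a fold of 18.999 joined 8 CK peaks of 236 to 1222 bp with folds of 2.20 to 9.17. Its summit, at position 29804906, was also the summit of 1 of the 8 CK peaks. At chr1:39756784-39761650, a hypermethylated peak of 4867 bp and a fold of 11.2 joined 6 CK peaks with folds of 2.91 to 3.93. The most extended splits were small by comparison. The CK peak chr12:15741578-15743367 (fold 5.42) was met by chr12:15741540-15741958 (fold 2.53) and chr12:15742392-15743341 (fold 4.61), and the CK peak chr2:9191250-9192553 (fold 5.69) by chr2:9191196-9192145 (fold 16.9) and chr2:9192358-9192560 (fold 4.35). The 22 split CK peaks had a median width of 1002 bp, and the median gap between their pieces was 232 bp.

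Summits of the 39303 pairs moved little. The median absolute shift was 17 bp, with quartiles of 5 and 48 bp. The shift was within 10 bp in 38.0% of pairs, within 50 bp in 76.0% and within 200 bp in 91.5%. It had no side, with a signed median of 0 bp and 18921 shifts toward higher and 19196 toward lower coordinates. The median was between 17 and 19 bp on each of the 12 chromosomes. For scale, the summits of 1 IP library set called against input and against IgG differed by 0 bp at the median and by 3 bp at the 90th percentile in either condition. Those lists share their IP reads, so the values give only the effect of the control on the summit. No shift between separate libraries of a condition was available to compare with the 17 bp. The CK summit lay within the hypermethylated peak in 99.7% of pairs, and the hypermethylated summit within the CK peak in 95.2%. In IgG-called lists the median shift was 18 bp over 56243 pairs.

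Strong peaks shifted least. From the lowest to the highest quintile of CK fold the median shift fell from 26 to 12 bp, and the share within 50 bp went from 65.4% to 85.5%. By width of the hypermethylated peak, the median rose from 13 bp in the narrowest to 30 bp in the widest quintile, and the 90th percentile from 59 to 478 bp. Shifts over 500 bp occurred in 778 pairs (1.98%), whose hypermethylated peaks had a median width of 1302 bp against 469 bp in the other pairs. The pair with the highest fold in both conditions, CK chr5:10192301-10194273 (fold 31.2) and hypermethylated chr5:10192589-10194372 (fold 46.7), had summits at 10193676 and 10193673. In the next pair, CK chr2:14266888-14267770 (fold 27.1) and hypermethylated chr2:14266638-14267713 (fold 24.5), the summits stood at 14267159 and 14267515, one of the larger shifts among strong peaks.

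Hypermethylated peaks of pairs were wider. Their median width was 477 bp against 288 bp in CK, and the median ratio within pairs was 1.41 (log2 0.49, interquartile range 0.20 to 1.00). The hypermethylated peak was wider in 35504 pairs (90.3%), equal in 74 and narrower in 3725, and at least 2 times wider in 24.9%. The extra width was balanced, with medians of 51 bp on the left and 50 bp on the right, and in 72.7% of pairs the hypermethylated peak enclosed the CK peak. The median log2 ratio per chromosome lay between 0.46 and 0.52. The ratio was higher at weak CK peaks, 1.61 in the lowest quintile of CK fold, than at strong ones, 1.27 in the highest.

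The width difference was not the same in all lists. CK peaks of the IP library set scaled to 0.489 had a median of 273 bp against input, and the peaks they overlapped against IgG had a median of 382 bp, a ratio of 1.25 within pairs. For hypermethylated DNA, unscaled in both lists, the medians were 434 and 432 bp and the ratio was 1.00. Between conditions with IgG-called lists, hypermethylated peaks were 1.03 times as wide as their CK partners (417 and 380 bp), and 54.8% were wider. The smallest peak allowed was also longer in hypermethylated DNA, 199 against 168 bp. With widths divided by these minima, the ratio for common peaks was 1.19. The control and the scaling of the IP change together between the lists, so their parts in the width cannot be told apart.

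**Figure D5:**
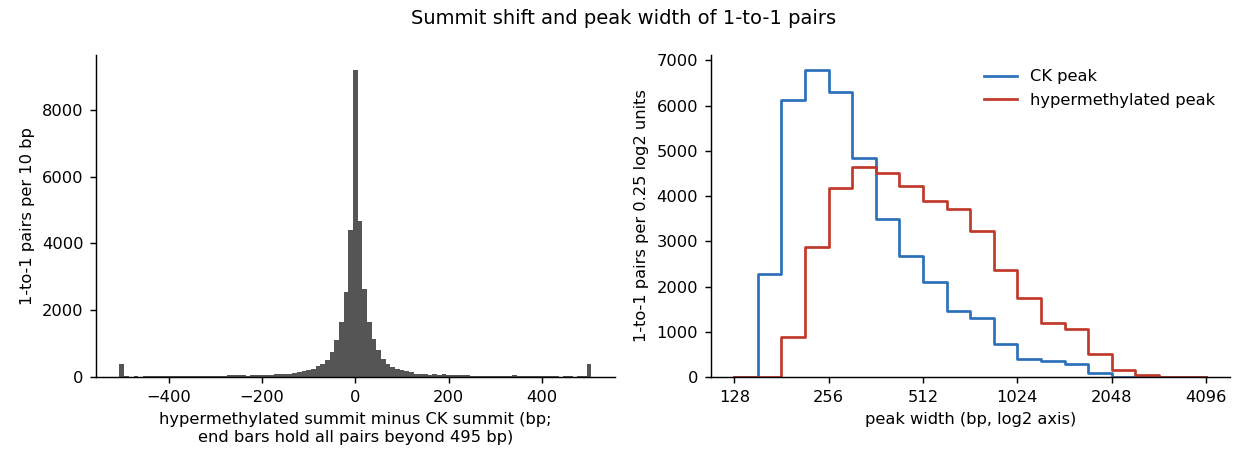
Summit shift (left, bp, in steps of 10 bp) and peak width (right, bp on a log2 axis) of the 39303 pairs of 1 CK and 1 hypermethylated peak. Shifts centre on 0 bp, and the hypermethylated widths (median 477 bp) lie to the right of the CK widths (median 288 bp).

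Enrichment at the shared summits depended on its measure. By the fold against input, hypermethylated peaks were higher in 79.4% of pairs, with medians of 5.47 and 3.59 and a median log2 ratio of 0.55 (0.49 on chromosome 11 to 0.59 on chromosome 5). By reads at the summit divided by the genome mean coverage of the same IP, they were higher in 33.1% of the 38594 pairs that could be solved, with medians of 6.39 in hypermethylated DNA and 7.49 in CK and a median log2 ratio of -0.24. In another set of pairs, those of the IgG-called lists, the fold against IgG gave a median log2 ratio of -0.20. Relative to their own coverage, then, the summits of most solved pairs were lower in hypermethylated DNA. These pairs had to be called against input in both conditions, where the CK IP was scaled to 0.489 of its reads. The 10th percentile of summit reads was 53 at shared CK peaks and 42 at shared hypermethylated peaks. How this selection bears on the read ratio was not tested. The median local control level at shared peaks was 10.9999 in CK, after scaling to a genome mean of 6.004, and 11.97 in hypermethylated DNA, with a genome mean of 11.4. The part of the control level in the fold was not tested.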

How the data were processed

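The authors trimmed the reads with fastp, aligned them to the MSU v7.0 rice genome with BWA, removed reads with a mapping quality below 10 and PCR duplicates, merged the 2 IP libraries of each condition and called peaks with MACS2 2.1.1 on fragment pairs (q-value limit 0.05), once with input and once with IgG as control. The deposited lists give, for each peak, its position and summit, a fold enrichment (ratio), and a −log10 p-value and −log10 q-value, as the authors' peak caller wrote them. The pH is that of the sample titles, since the general protocol in the labels gives buffers of pH 5.5. The labels call M.CviPI a CpG methyltransferase, and its known specificity, GpC, was used here. The labels of the demethylated pH 7.0 IP libraries name another list, so that list was assigned by its own name.

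Read totals were not used here. Reads at summits, the local control level and the scaling of the IP were solved from fold and −log10 p-value (up to 250) as MACS2 makes them, checked on simulated data. Overlaps, clusters, bins and shifts were computed with Python 3.11.15, numpy 2.4.6 and pandas 2.3.3, and overlaps were tested on simulated data against bedtools 2.31.1. Chromosome length was the largest peak end in any of the 10 lists. Named peaks were, on each side, the 4 specific peaks that ranked first by −log10 q-value, the 2 joins of the most CK peaks and the 2 splits with the most pieces (ties by width), the 3 clusters with the most gains, the 3 windows with the most specific peaks of each side and the 2 pairs with the highest lower fold. Members and lists were chosen with earlier results of these data known. No test between conditions was made, since each had 1 merged library. Alternatives were other lists, a stricter q-value, a larger overlap, the top 20000 peaks, equal coverage by thinning reads at random, other cluster definitions, merged neighbours, a fold of at least 4 and scaled widths. Sequence composition and genes at peaks were not analysed here.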

Additional observations from a re-analysis of the deposited data

How the results depend on the processing

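The log2 ratio of hypermethylated-specific to CK-specific peaks, 1.72 for common peaks, was 1.92 with all input-called peaks, -1.52 with all IgG-called peaks, 2.38 at a −log10 q-value of at least 5, 0.14 with the top 20000 peaks of each set and 1.52 with hypermethylated summits thinned to CK coverage. Alternatives chosen after seeing the data were scaling these summits without a random draw, which gave 1.60, and counting as specific only peaks in neither list of the other condition, which gave 0.39. In the order input-called, IgG-called, −log10 q-value, top 20000, thinned and scaled, the shared share of hypermethylated peaks (63.75% at first) was 64.33%, 86.38%, 57.33%, 61.02%, 65.01% and 64.66%, and that of CK peaks (86.44%) was 88.35%, 70.42%, 88.35%, 64.67%, 85.45% and 85.95%. The log2 ratio of gain density inside over outside CK clusters, 0.11, was 0.0029 with input-called peaks, 0.25 with IgG-called peaks, 0.45 with the top 20000, -3.59 with gaps of at most 1 kb, 0.058 with 10 kb, 0.016 with 20 kb, 0.24 with clusters of at least 5 peaks, -0.20 over all sequence and 0.60 for peaks in neither CK list. The last value counts sequence under CK peaks that were not common as free. The log2 ratio of splits to joins, -7.46, was -3.51 with IgG-called peaks and -9.39 with the top 20000. The median summit shift, 17 bp, was 18 bp with IgG-called peaks, 16 bp at the stricter q-value, 13 bp with the top 20000 and 13 bp with folds of at least 4. The median log2 width ratio, 0.49, was 0.043 with IgG-called peaks, 0.63 with the top 20000, 0.43 with folds of at least 4 and 0.25 with widths divided by the smallest of their list. The cause of these changes was not tested, apart from the definitions of clusters, which by construction change the sequence a gain can occupy. Of 61 alternative values, 23 stayed within the interval of the value for common peaks, among them those that asked for 50% of the shorter peak to overlap. This was the counting interval for shares and for ratios of counts or densities. For the summit shift and the width ratio it was the SD over chromosomes on either side of the median. Merging neighbours within 100 bp left the numbers of splits and joins as they were, so it gave no information. Thinning and scaling did not alter the width of a peak, so they do not show how coverage bears on width. No paired analysis was possible because each list came from merged libraries, which also leaves no single replicate to omit. Read depth was known only at summits.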
